A study of Mus musculus with 18 samples.

Results

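Collagen chain genes, the genes of the polypeptides that assemble into the collagens of the extracellular matrix, were followed in mouse fat cell precursors. Members were all gene symbols of the form Col, a number, the letter a and a number, and 40 of the 17267 gene symbols in either count table met that rule, 40 of 17001 in undifferentiated and 38 of 15482 in differentiated cells. They comprised 11 fibrillar chains, 6 chains of the type IV basement membrane network, 3 multiplexin or anchoring fibril chains (Col15a1, Col18a1 and Col7a1), 3 short-chain network chains, 6 beaded filament chains of type VI, 8 fibril-associated chains (FACIT), 2 transmembrane chains and Col28a1.

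Poly(A) RNA came from WT primary preadipocytes, the undifferentiated ones from epididymal white fat, in 6 groups of 3 libraries. The undifferentiated CD mock, CD TGF-b1 and CD TGF-b1 with SB431542 groups came from animals on a control diet (CD). SB431542 blocks the kinase of the type I TGF-b receptor, and TGF-b1 is the cytokine that activates it. The HFD mock group had the mock treatment after a high-fat diet (HFD). Itga5-High and Itga5-Low cells had been separated by flow cytometry with an antibody to CD49e, the integrin alpha 5 encoded by Itga5, and then induced to become adipocytes, with no diet named. For doses, treatment times and the age and sex of the animals, nothing was stated in the labels. Whether the replicates of a group are different animals or different cultures is not stated either, so each p-value reflects the spread of these libraries alone and that spread can be technical. Below, mock without a diet means CD mock, and "with SB431542" means with TGF-b1 and SB431542 together.

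Collagen chains are wound into a helix of like or unlike chains before they leave the cell. Fibrillar types I, III and V build the cross-striated fibrils of connective tissue, FACIT chains sit on the surface of those fibrils, type IV chains form the sheet of basement membranes, and type VI chains form beaded filaments around cells. In fat, basement membrane and type VI collagens surround each adipocyte, and fibrillar collagens accumulate in fibrosis. TGF-b is the best known inducer of fibrillar collagen genes and acts through SMAD transcription factors.

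Promoter sequences of 32 of the 40 members, in 34 windows of the 250 bases before the transcription start, were found in RefSeq (build GRCm38.p6). Those of 5 members are shown because the results turn on them: Col11a1 had the largest rise with TGF-b1, Col1a2 rose while Col3a1 fell, Col6a1 had the strongest fall among abundant members, and Col18a1 has separate starts whose transcripts differed in share. Each is printed 5′ to 3′ on the gene's strand, and capitals mark the SMAD box CAGAC, the CCAAT box CCAAT and the TATA box TATAAA, searched on both strands, so that GTCTG and ATTGG are also capitals. The windows are chr3:114030290-114030539 (+ strand), chr6:4505368-4505617 (+), chr1:45311288-45311537 (+), chr10:76726045-76726294 (- strand) and, for the inner and the outer start of Col18a1, chr10:77113706-77113955 (-) and chr10:77166531-77166780 (-).
Col11a1: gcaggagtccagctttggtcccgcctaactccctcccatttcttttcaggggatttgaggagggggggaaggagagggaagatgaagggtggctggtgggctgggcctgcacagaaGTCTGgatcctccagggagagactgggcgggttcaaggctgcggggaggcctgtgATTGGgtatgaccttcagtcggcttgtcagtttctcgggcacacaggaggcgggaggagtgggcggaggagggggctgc
Col1a2: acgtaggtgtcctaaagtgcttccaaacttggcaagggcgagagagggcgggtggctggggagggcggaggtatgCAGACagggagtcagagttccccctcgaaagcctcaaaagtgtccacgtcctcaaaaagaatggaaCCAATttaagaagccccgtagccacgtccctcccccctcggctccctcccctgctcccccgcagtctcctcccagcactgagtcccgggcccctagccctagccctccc
Col3a1: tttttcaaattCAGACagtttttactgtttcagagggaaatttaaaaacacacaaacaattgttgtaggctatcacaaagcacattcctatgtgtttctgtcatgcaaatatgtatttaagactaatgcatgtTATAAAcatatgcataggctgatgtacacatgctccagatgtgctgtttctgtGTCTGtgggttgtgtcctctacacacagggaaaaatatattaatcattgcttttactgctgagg
Col6a1: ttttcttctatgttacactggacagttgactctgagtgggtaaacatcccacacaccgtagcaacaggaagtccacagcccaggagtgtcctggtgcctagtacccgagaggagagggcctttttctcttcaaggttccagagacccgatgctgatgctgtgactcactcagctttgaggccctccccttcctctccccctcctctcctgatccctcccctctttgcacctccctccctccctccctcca
Col18a1 inner start: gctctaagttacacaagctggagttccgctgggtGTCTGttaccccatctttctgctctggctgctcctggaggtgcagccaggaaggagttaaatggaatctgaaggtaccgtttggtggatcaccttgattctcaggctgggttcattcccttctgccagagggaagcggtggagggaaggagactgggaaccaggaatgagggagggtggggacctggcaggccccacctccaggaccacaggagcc
Col18a1 outer start: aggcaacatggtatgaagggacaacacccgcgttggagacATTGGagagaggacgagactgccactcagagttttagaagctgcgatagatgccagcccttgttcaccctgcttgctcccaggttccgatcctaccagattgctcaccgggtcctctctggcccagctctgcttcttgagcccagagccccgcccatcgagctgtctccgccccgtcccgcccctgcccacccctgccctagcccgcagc

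Col11a1 and Col1a2 each held 1 SMAD box and 1 CCAAT box, Col3a1 held 2 SMAD boxes and 1 TATA box, and the Col18a1 windows held 1 SMAD box at the inner and 1 CCAAT box at the outer start. Col6a1 held none of the marked motifs, but its window was the only collagen window with the AP-1 site TGANTCA, 90 bases before the start. Over the 34 collagen windows, 47.1% held CAGAC against 42.2% of 32851 promoter windows of this length, 32.4% against 33.8% held CCAAT, 11.8% against 12.4% held TATAAA, and 2.94% against 6.75% held the AP-1 site TGANTCA. The GC box GGGCGG was in 61.8% against 32.7%, in windows with a median GC content of 59% against 52.4%. The AP-1 site and the GC box were also searched on both strands and are not in capitals, and none of the 5 motifs contains another. A match describes letters and does not show that a factor was bound.

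Levels of a gene between groups are in CPM, counts scaled to a common library size with TMM factors, and levels between genes are in TPM, which also divides by transcript length. A log2 difference of 1 is a change of 2-fold. Total counts per library ranged from 11154449 to 17288608. A gene was called changed at an adjusted p under 0.05 in edgeR's quasi-likelihood test with Benjamini-Hochberg adjustment over all genes tested. Replicates differed so little that p-values of very abundant genes are not printed, and small differences were called. For the same reason a lack of overlap between groups describes the libraries of a member. It does not set members apart from other genes, for which the share without overlap is not given. Of the members, 33 passed the filter on low counts in undifferentiated and 30 in differentiated cells, and a member high in only 1 group can have passed through that group.

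Checked against their markers, the undifferentiated libraries held RNA of several cell types. All 8 preadipocyte and fibroblast markers were present. Their summed level was 2974 to 2991 CPM in mock, 1446 to 1468 CPM with TGF-b1, 3937 to 3952 CPM with SB431542 and 2320.3 to 2349 CPM in HFD mock. The 7 endothelial markers summed to 347 to 363, 171 to 174, 701 to 714 and 114 to 123 CPM in the same order, and the 7 mesothelial markers to 1834 to 1880.2, 514 to 518, 1617 to 1631 and 482 to 487 CPM. The macrophage list (8 genes) was highest in HFD mock, with sums of 488 to 499.6, 514 to 526, 983 to 1001 and 2041 to 2058 CPM. The adipocyte list (6 genes, Lep not analysed here) was highest with SB431542, with sums of 224 to 228, 82.00 to 84.6, 967 to 978 and 134 to 145 CPM. The pericyte and smooth muscle list (6 genes) was highest with TGF-b1, with sums of 491 to 504, 665 to 671, 521 to 543 and 500.4 to 521 CPM. Most of the difference in that sum was Cspg4, at 27.6 CPM in mock and 189 CPM with TGF-b1, and 3 of the 6 were called higher and 3 lower with TGF-b1 than in mock. None of the markers measured was at 0 in a group. The part of other cell types in the collagen results was not tested, and in such bulk RNA fewer cells of a type and less RNA per cell cannot be told apart. Itga5 itself stood at 461, 477 and 475 CPM in Itga5-High and 324, 330 and 334 CPM in Itga5-Low libraries, in the direction of the sort.

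Collagen chains together took 3.28, 3.27 and 3.27% of all counts in the mock libraries and 3.54, 3.54 and 3.51% with TGF-b1. They took 1.94, 1.94 and 1.94% with SB431542 and 3.75, 3.76 and 3.76% in HFD mock. The SB431542 libraries were the lowest and the HFD libraries the highest of the undifferentiated cells, with no overlap between groups. In differentiated cells the share was 7.43, 7.41 and 7.38% for Itga5-High and 7.09, 7.08 and 7.11% for Itga5-Low, levels from a table normalized separately that were not tested against the others. Fibrillar chains made up 74.4% ± 0.062 (SD, n = 3) of collagen counts in mock, 79.1% ± 0.11 with TGF-b1, 58.7% ± 0.21 with SB431542 and 75.3% ± 0.051 in HFD mock. Beaded filament chains made up 5.11% ± 0.030, 1.44% ± 0.019, 10.8% ± 0.031 and 3.69% ± 0.057 of collagen counts in the same order. Type IV chains made up 15.2% ± 0.066, 11.97% ± 0.099, 24.9% ± 0.14 and 13.8% ± 0.020. As parts of a whole, these shares also move when fibrillar counts alone change. Of all counts, beaded filament chains took 0.167, 0.0509, 0.209 and 0.139%, and type IV chains 0.496, 0.423, 0.483 and 0.520%. Type IV chains were thus higher in HFD mock than in mock, as fibrillar chains were.

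**Figure D1:**
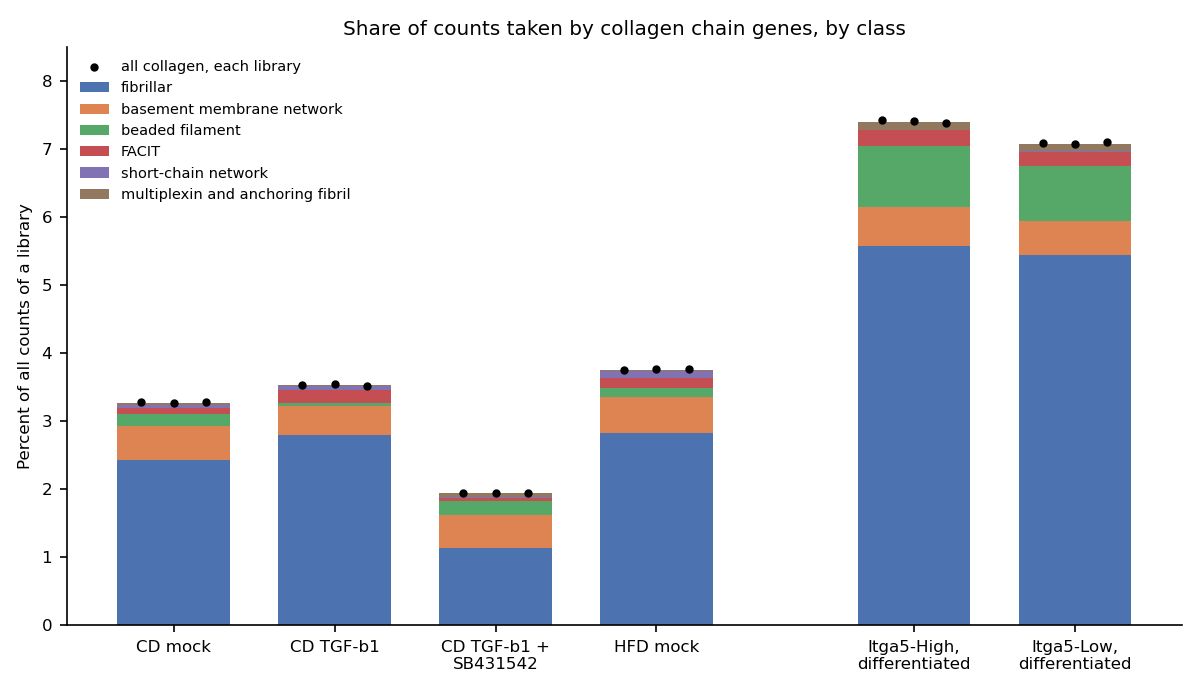
Share of each library's counts taken by collagen chain genes (vertical axis, percent), with bars for the mean of 3 libraries split by collagen class and black points for the sum in each library; the transmembrane chains and Col28a1 are too small to draw. The SB431542 bar is the lowest at 1.94% and both differentiated groups, from a separate table, stand at 7.08% or more in every library.

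Per length, Col1a1, the alpha 1 chain of type I collagen, was the most abundant chain in mock at 3796 ± 23 TPM, ahead of Col1a2, the alpha 2 chain of the same collagen, at 3184 ± 9.8 and of Col3a1, the only chain of type III, at 2373 ± 14. The library values of these 3 chains did not overlap. Col1a1 was also first with TGF-b1 at 5578 ± 25 TPM, in HFD mock at 5231 ± 15, in Itga5-High at 9907 ± 66 and in Itga5-Low at 8559 ± 34. With SB431542 it stood at 929 ± 4.8 TPM, behind Col3a1 at 1922 ± 11, Col1a2 at 1429 ± 12 and the basement membrane chain Col4a1 at 995 ± 4.3. In Itga5-Low, Col3a1 at 6085 ± 12 TPM stood above Col1a2 at 5739 ± 21, the reverse of their order in Itga5-High, where Col3a1 was at 4563 ± 16 and Col1a2 at 5239 ± 28.

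With TGF-b1, Col1a1, Col1a2, Col5a1, Col5a2, Col11a1, Col12a1 and Col8a1 were higher than in mock, and the type VI chains tested, Col3a1, Col14a1, Col15a1, Col18a1 and 4 of 6 type IV chains were lower. Of 33 members tested, 12 were called higher and 18 lower, or 36.4% and 54.5%, beside 33.4% higher and 34.2% lower of all 14078 genes tested, so the share of risers was near that of all genes. The median log2 difference of the members was -0.55 and that of all genes -0.017. By 1 log2 unit or more, 6 members were higher and 11 lower. The share of all genes at that size is not given, so these counts describe the members alone. By class, 5 of 10 fibrillar chains rose and 4 fell, all 5 type VI chains tested fell, 4 of 6 type IV chains fell and 2 rose, and 2 of 3 short-chain network chains rose.

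Col1a1 stood at 8959.9, 8958 and 8858 CPM in the mock libraries and at 14757, 14787 and 14742 CPM with TGF-b1, a difference of 0.73 ± 0.0062 log2 (± SE). Its partner Col1a2 rose less, from 6607, 6604 and 6566 to 8219, 8209.5 and 8169.6 CPM, a log2 difference of 0.31 ± 0.0068. For both chains every TGF-b1 library lay above every mock library. Col5a1, a chain of the type V collagen that initiates type I fibrils, went from 892, 879 and 913 to 1378, 1354 and 1363 CPM, or 0.61 ± 0.012 log2. Col5a2, which assembles with Col5a1, went from 2101, 2079 and 2105 to 3467, 3505 and 3452 CPM, or 0.73 ± 0.0090 log2. Both of these type V chains rose, Col5a2 by somewhat more, again without overlap between groups. Col11a1, a minor fibrillar chain best known from cartilage, was at 4.57, 4.95 and 6.25 CPM in mock and 118, 112 and 118 CPM with TGF-b1. This was the largest rise among the members, 4.47 ± 0.071 log2 or 22.1-fold (edgeR adjusted p = 4.19e-41, higher in 3 of 3 libraries). Col11a1 had 195 counts over the mock libraries, and the SE given is smaller than their counting error.

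Not every fibrillar chain rose. Col3a1 fell from 5250.0, 5199 and 5257 CPM in mock to 2353, 2345 and 2339.5 CPM, a log2 difference of -1.16 ± 0.0078, with all TGF-b1 libraries below all mock libraries. Col5a3, a type V chain of more restricted expression, fell from 61.6, 63.7 and 61.4 to 37.6, 36.8 and 38.01 CPM, or -0.73 ± 0.048 log2. Among the scarcer fibrillar chains, Col24a1 fell by 13.1-fold from 2.85 ± 0.73 CPM (SD, n = 3), Col27a1 fell by 1.85-fold, and Col11a2 was not called at 0.49 ± 0.31 log2 (edgeR adjusted p = 0.147). Col3a1 and Col5a2 are neighbours on chromosome 1, at 45311538 to 45349706 and 45374331 to 45503282 in mm10 coordinates, 24.6 kb apart, and moved in opposite directions.

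Among FACIT chains, Col12a1, which coats fibrils in tendon and other dense tissue, rose from 687, 716 and 718 to 1825, 1849 and 1832 CPM, a log2 difference of 1.38 ± 0.013. Col14a1, a related fibril-associated chain, fell from 166, 175 and 172 to 33.9, 26.9 and 32.1 CPM, or -2.46 ± 0.042 log2. These 2 changes were opposite and neither overlapped mock. Col16a1 was at 93.1, 95.2 and 101 CPM in mock and 106, 109 and 106 CPM with TGF-b1, a log2 difference of 0.15 ± 0.036 that was 0.0013 (adjusted p = 0.977, edgeR) with scaling by total counts.

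All 5 type VI chains tested fell. Col6a1, whose product pairs with those of Col6a2 and Col6a3, was at 598, 584 and 587 CPM in mock and 61.9, 60.3 and 64.8 CPM with TGF-b1, 9.43-fold lower. Col6a2, on the same strand of chromosome 10 at a distance of 85.2 kb, went from 399, 397 and 388 to 53.2, 53.4 and 48.9 CPM, 7.64-fold lower. Col6a3, the longest chain of that trimer, fell less, from 653, 649 and 653 to 438, 433 and 444 CPM, or 1.49-fold. The log2 differences were -3.24 ± 0.024, -2.93 ± 0.029 and -0.57 ± 0.015, and none of the groups overlapped. Col6a5 and Col6a6, which can take the place of Col6a3 in the trimer, were scarce, with 38 and 21 counts over the mock libraries and 1 and 2 counts over the TGF-b1 libraries. Mock was thus 38.7-fold (95% exact counting interval 6.53 to 1567) and 10.7-fold (2.61 to 94.0) higher. Col6a4 had 5 and 0 counts, at least 1.70-fold higher in mock against a limit of 3 counts over the group.

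Type IV chains, the network of basement membranes, showed small differences for the abundant pair. Col4a1 was at 2803, 2734 and 2761 CPM in mock and 2695, 2751 and 2698 CPM with TGF-b1, overlapping ranges with a log2 difference of -0.027 ± 0.0089 that was called by edgeR but not by DESeq2 (adjusted p = 0.0587). Col4a2, read from the opposite strand of the same promoter region, was at 1841, 1845 and 1839 and 1702, 1725 and 1690.4 CPM, or -0.11 ± 0.010 log2. The X-linked Col4a5 fell from 201, 206 and 206 to 134, 142 and 141 CPM and its neighbour Col4a6 from 43.2, 42.01 and 45.5 to 20.97, 19.7 and 17.9 CPM, by 1.47-fold and 2.24-fold without overlap. The head-to-head pair Col4a3 and Col4a4, the chains of kidney basement membrane, rose at very low levels, to 2.56 ± 0.56 and 4.26 ± 0.39 CPM (SD, n = 3) by 1.45 ± 0.30 and 1.08 ± 0.21 log2. Col4a3 and Col4a4 lie 71 bases apart on chromosome 1, and Col4a1 and Col4a2 on chromosome 8 overlap by 22 bases at their 5′ ends, where reads cannot be told apart without strand.

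The multiplexins Col15a1 and Col18a1, proteoglycan collagens of basement membranes whose carboxyl ends release the fragments restin and endostatin, both fell. Col15a1 went from 168, 169.6 and 171 to 88.4, 84.8 and 86.5 CPM, 1.96-fold lower. Col18a1 went from 137, 136 and 139.6 to 52.1, 47.3 and 48.5 CPM, 2.79-fold lower, with no overlap for either. Col7a1, the anchoring fibril chain of skin, was at 2.16 ± 0.58 CPM in mock and 3.95 ± 0.32 CPM with TGF-b1 (SD, n = 3), called higher by 0.85 ± 0.21 log2. In the same libraries 6 of 7 endothelial, 6 of 7 mesothelial, 7 of 8 preadipocyte and fibroblast and 6 of 6 adipocyte markers were called lower. Of 8 macrophage markers, 4 were called lower and 1 higher. The part of these cell types in these falls was not tested.

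Short-chain and other collagens split as well. Col8a1, a network collagen of vessel walls and the corneal basement membrane, rose from 336, 331 and 332 to 698, 714 and 684 CPM, 2.10-fold. Col8a2, the other type VIII chain, fell from 65.8, 68.03 and 74.1 to 26.1, 31.9 and 31.1 CPM, 2.32-fold lower. The type VIII chains thus changed in opposite directions, without overlap. Col10a1, the marker of hypertrophic cartilage, was called higher at 1.78 ± 0.15 against 0.639 ± 0.18 CPM (SD, n = 3), but it lies within Nt5dc1 on the opposite strand for 7105 bases, and the strandedness of the counting is not stated. Col28a1, a chain related to type VI and known from peripheral nerve, fell from 21.2, 25.6 and 27.4 to 5.37, 3.63 and 5.73 CPM. The transmembrane chain Col23a1 was at 1.14, 0.849 and 1.46 CPM in mock and 1.02, 0.532 and 0.741 CPM with TGF-b1, overlapping and not called (edgeR adjusted p = 0.186).

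**Figure D2:**
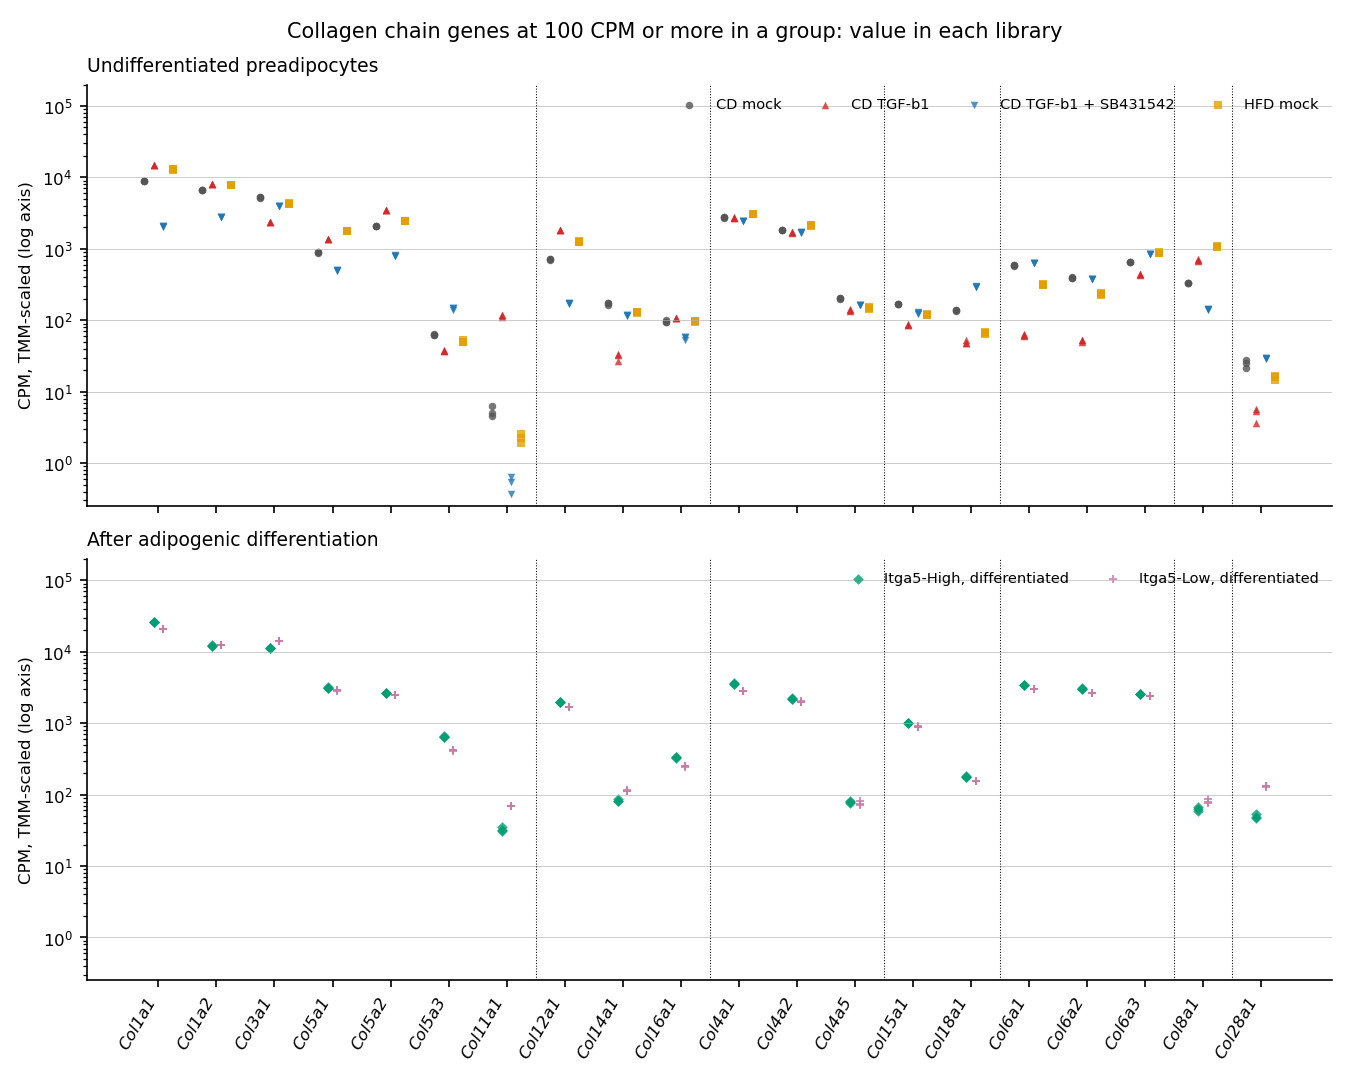
Level of the 20 collagen chain genes that reached 100 CPM in a group, in each library (vertical axis, TMM-scaled CPM on a log axis; dotted lines part the classes), with undifferentiated cells above and differentiated cells below. Replicates nearly coincide, Col6a1 and Col6a2 drop below 65 CPM with TGF-b1 only, and Col11a1 passes 110 CPM with TGF-b1 only among the undifferentiated groups.

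With SB431542 added to TGF-b1, Col1a1, Col1a2, Col5a1, Col5a2, Col11a1 and Col12a1 were lower and the type VI chains tested, Col14a1, Col18a1 and Col5a3 were higher than with TGF-b1 alone. Of 33 members, 17 were higher and 13 lower than with TGF-b1 alone, or 51.5% and 39.4%. Of all genes tested, 41.4% were higher and 38.3% lower, so the share of fallers was near that of all genes. The members' median log2 difference was 0.29 and that of all genes 0.037, or 0.55 and 0.29 with scaling by total counts. Since both comparisons use the TGF-b1 libraries, a change that is opposite in the other comparison is not independent of it. By 1 log2 unit or more, 11 members were higher and 9 lower, again without the share of all genes at that size.

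Col1a1 fell to 2063, 2078 and 2054 CPM with SB431542, 7.15-fold below TGF-b1 alone, and Col1a2 to 2771, 2824 and 2795 CPM, 2.93-fold below. The 2 type I chains were thus lowered to different extents. Col5a1 was at 493, 498 and 498 CPM and Col5a2 at 814, 801 and 797 CPM, 2.75-fold and 4.32-fold lower than with TGF-b1. Col12a1 was at 176, 175 and 170.1 CPM, 10.5-fold lower. Col11a1 nearly disappeared, at 0.649, 0.368 and 0.538 CPM, a log2 difference of -7.78 ± 0.11 or 219.9-fold. It had 21 counts over these libraries, and the SE given is smaller than their counting error. The change of Col11a1 was the largest of any member in any comparison apart from the few counts of Col6a5. In each of these chains the SB431542 libraries lay below mock as well as below TGF-b1. Col8a1 behaved alike at 143, 143 and 138 CPM, 4.94-fold below TGF-b1, and Col16a1 at 52.4, 58.9 and 57.7 CPM, 1.90-fold below.

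Among chains that rose, Col6a1 reached 641, 639 and 643 CPM, 10.2-fold above TGF-b1, and Col6a2 379, 382 and 378 CPM, 7.36-fold above. Col6a3 reached 847, 839 and 843 CPM, 1.92-fold above. The type VI chains were all called higher, 5 of 5. Col6a5 had 908 counts over the SB431542 libraries against 1 with TGF-b1, 849-fold (95% exact counting interval 152 to 33553), and Col6a6 290 against 2, 136-fold (37.2 to 1124). Col6a4, outside the test, had 25 against 0 counts, at least 7.79-fold higher. Col6a6, Col6a5 and Col6a4 lie in this order on chromosome 9, 28.0 and 29.7 kb apart on the same strand.

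Col3a1 was at 3996, 4041 and 3993 CPM, 1.71-fold above TGF-b1 alone, so it rose where Col1a1 fell. Col5a3 reached 140.4, 146 and 148 CPM, 3.87-fold above, and Col14a1 119, 116 and 117 CPM, 3.77-fold above. Col18a1 was at 294, 290.4 and 299 CPM, a rise of 2.58 ± 0.032 log2, and Col15a1 at 131, 123 and 127 CPM, a rise of 0.56 ± 0.032 log2. Among the basement membrane chains, Col18a1 had the largest rise in this comparison. Col4a5 was at 161, 164 and 166 CPM and Col4a6 at 48.4, 51.01 and 44.5 CPM, higher by 0.23 ± 0.027 and 1.31 ± 0.064 log2. Col4a1 at 2480.3, 2472 and 2459 CPM had a log2 difference of -0.14 ± 0.0090 with TMM and of 0.12 with scaling by total counts. Col4a2 at 1704, 1679.9 and 1714 CPM was not called with TMM, while its log2 difference was called at 0.25 with total counts and at -0.024 in DESeq2, so no direction is given for this pair. Col28a1 reached 29.98, 28.2 and 29.6 CPM, 5.85-fold above TGF-b1, Col23a1 4.76, 3.31 and 4.68 CPM, 5.49-fold above, and Col8a2 38.7, 35.4 and 35.02 CPM, 1.22-fold above. Endothelial, macrophage, adipocyte and preadipocyte markers were also higher with SB431542 than with TGF-b1 (6 of 7, 8 of 8, 6 of 6 and 7 of 8 called). Of 7 mesothelial markers, 5 were called higher and 2 lower. The part of these cell types in these rises was not tested.

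Compared with mock, cells given TGF-b1 and SB431542 together had less Col1a1, Col1a2, Col5a1, Col5a2, Col11a1 and Col12a1 RNA and more Col6a5, Col6a6, Col18a1 and Col5a3 RNA. Of 33 members, 10 were higher and 19 lower, or 30.3% and 57.6%, beside 30.6% higher and 30.4% lower of all genes tested. The share of risers was thus near that of all genes. The median log2 difference was -0.32 for members and 0.0063 for all genes. Col1a1 was 4.32-fold, Col1a2 2.36-fold, Col5a2 2.60-fold, Col12a1 4.06-fold, Col8a1 2.35-fold and Col11a1 9.94-fold lower than in mock. With TGF-b1 alone each of these 6 chains had been higher than the same mock libraries. Col3a1 and Col14a1 were lower than mock, with log2 differences of -0.38 ± 0.0075 and -0.55 ± 0.031. Col6a5 stood at 21.04, 24.3 and 21.96 CPM against 1.14, 0.919 and 1.03 CPM in mock, 21.8-fold higher, and Col6a6 at 6.56, 7.28 and 7.68 against 0.439, 0.636 and 0.599 CPM, 12.5-fold higher. Col18a1, Col5a3 and Col23a1 were 2.14-fold, 2.33-fold and 3.73-fold higher than mock. In the same libraries 8 of 8 macrophage, 6 of 6 adipocyte, 5 of 7 endothelial and 5 of 8 preadipocyte and fibroblast markers were called higher and 5 of 7 mesothelial markers lower, and their part in these differences was not tested.

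Col6a1, Col6a2 and Col6a3 came within 1.3-fold of mock, at log2 differences of 0.12 ± 0.015, -0.055 ± 0.019 and 0.37 ± 0.013. The Col6a2 difference was 0.054 with scaling by total counts, and it was lost without mock replicate 1 or 2 or SB431542 replicate 1 (edgeR adjusted p = 0.0569 to 0.125). Col4a6 was called higher by 0.14 ± 0.054 log2 but not without mock replicate 2 or SB431542 replicate 2, nor in DESeq2 (adjusted p = 0.108 to 0.153). Col28a1 was called higher by 0.24 ± 0.073 log2, but not without mock replicate 1, at 0.14 (edgeR adjusted p = 0.102). Col4a2 had a log2 difference of -0.12 ± 0.010 with TMM and was not called with total counts, at -0.0065 (edgeR adjusted p = 0.456).

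**Figure D3:**
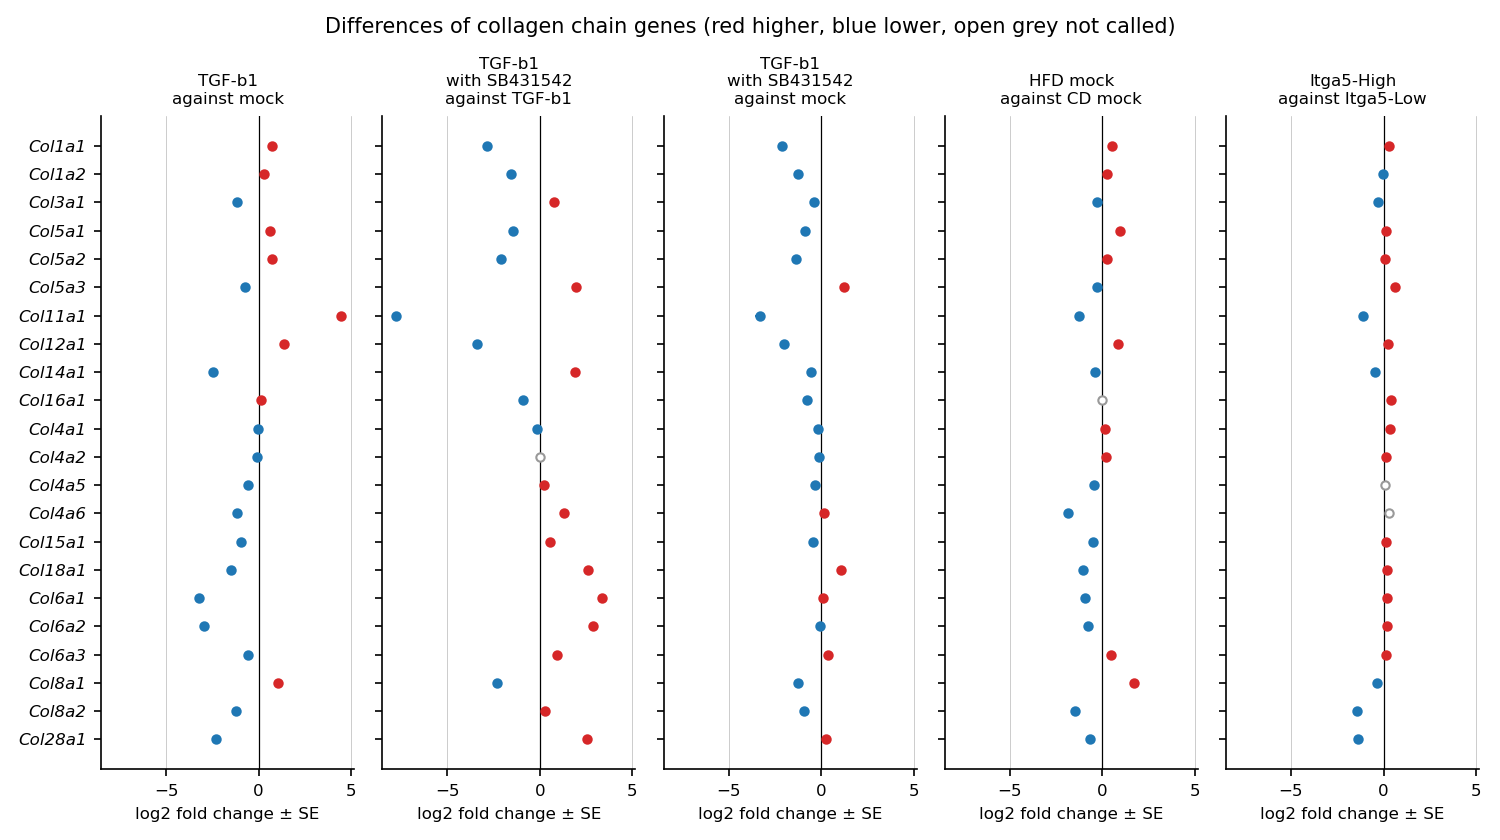
Log2 fold change ± SE (horizontal axis) of 22 collagen chain genes in each of the 5 comparisons, red where called higher, blue where called lower and open grey where not called; Col6a5 and Col6a6 are left out for their few counts. Col11a1 lies farthest right with TGF-b1 at 4.47 and farthest left with SB431542 against TGF-b1 at -7.78, while the differences between Itga5-High and Itga5-Low stay between -1.41 and 0.64.

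After the high-fat diet, Col1a1, Col1a2, Col5a1, Col5a2, Col12a1 and Col8a1 were higher than in control-diet mock, and Col6a1, Col6a2, Col18a1 and Col4a6 were lower. Of 33 members, 9 were higher and 17 lower, or 27.3% and 51.5%, beside 27.1% higher and 26.6% lower of all genes tested. Risers were thus about as frequent among members as among all genes. The median log2 difference was -0.30 for members and -0.0077 for all genes. Only Col8a1 rose by 1 log2 unit or more, whereas 8 members fell by that much. How many of all genes did so is not given, so this describes the members alone. Macrophage markers were higher in the same libraries (8 of 8 tested) and endothelial and mesothelial markers lower (7 of 7 each). Of 8 preadipocyte and fibroblast markers, 6 were called lower and 2 higher, and 5 of 6 adipocyte markers were called lower. The part of these cell types in the collagen differences was not tested. The CD mock libraries are the same as in the TGF-b1 comparison, so directions are not compared between the diet and the cytokine.

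Col1a1 was at 12905, 12972 and 12968 CPM in HFD mock, 0.54 ± 0.0062 log2 above CD mock, and Col1a2 at 7758, 7795 and 7815 CPM, 0.24 ± 0.0068 above. Col5a1 was at 1757, 1774 and 1769 CPM, 0.98 ± 0.012 log2 above, and Col5a2 at 2483, 2479.8 and 2488 CPM, 0.25 ± 0.0091 above. The type V chains thus differed in the size of their rise, and no HFD library of these 4 chains overlapped CD mock. Col12a1 stood at 1265, 1257 and 1267 CPM, 1.79-fold higher. Col8a1 stood at 1067, 1074 and 1081 CPM, 3.23-fold higher, the largest rise among the members, while Col8a2 stood at 25.3, 22.8 and 25.9 CPM, 2.80-fold lower.

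Col3a1 was lower at 4307, 4296 and 4325 CPM (-0.28 ± 0.0075 log2). Col11a1 was lower at 2.28, 2.53 and 1.90 CPM (-1.23 ± 0.18 log2), unlike the type I chains. Col5a3 at 49.7, 52.8 and 49.8 and Col14a1 at 129.9, 129 and 127 CPM were 1.23-fold and 1.33-fold lower. Col16a1 at 97.1, 98.6 and 94.3 CPM overlapped CD mock and was not called (0.0036 ± 0.036 log2, edgeR adjusted p = 0.942). Within type VI, Col6a1 was at 309, 317 and 314 CPM and Col6a2 at 231, 241 and 228 CPM, 1.88-fold and 1.69-fold lower, whereas Col6a3 was at 880.4, 906 and 883 CPM, 1.36-fold higher. The chains of the type VI trimer thus differed in direction in HFD cells. Col6a5 and Col6a6 had 17 and 8 counts over the HFD libraries. The lower call of Col6a6 was lost without CD mock replicate 2, HFD replicate 2 or HFD replicate 3 (edgeR adjusted p = 0.0567 to 0.0803).

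Basement membrane chains also parted. Col4a1 at 3096, 3106 and 3087 and Col4a2 at 2109, 2129.8 and 2159 CPM were higher by 0.16 ± 0.0088 and 0.21 ± 0.0099 log2. Col4a5 at 144, 151 and 149 and Col4a6 at 12.4, 11.8 and 11.7 CPM were lower, with log2 differences of -0.47 ± 0.026 and -1.86 ± 0.073, Col4a6 being the member with the largest fall. Every library of these 4 chains lay outside the range of CD mock. Col15a1 was at 119, 124 and 118 CPM and Col18a1 at 63.2, 67.3 and 68.7 CPM, 1.41-fold and 2.07-fold lower. Col28a1 at 16.5, 16.2 and 14.7 CPM was 1.57-fold lower and Col23a1 at 0.427, 0.735 and 0.282 CPM 2.38-fold lower.

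After adipogenic differentiation, cells sorted as Itga5-High and Itga5-Low differed by less than 1 log2 unit in 25 of 30 members tested, with Col1a1, Col4a1, Col5a3 and the main type VI chains higher and Col3a1, Col8a2, Col11a1 and Col28a1 lower in Itga5-High. Of these 30, 13 were higher and 12 lower, or 43.3% and 40%, beside 27% higher and 26.5% lower of 13468 genes tested. The median log2 difference was 0.076 for members and -0.0033 for all genes. None was higher and 5 were lower by 1 log2 unit or more. Without the share of all genes at that size, these counts and the 25 of 30 describe the members alone. Preadipocyte and fibroblast markers summed to 2971 to 3013 CPM in Itga5-High and 2935 to 2963 CPM in Itga5-Low. Of these 8 markers, 2 were called higher in Itga5-High, 4 were called lower and 2 were not called. Dcn had means of 310 and 500 CPM, and Ly6a of 997 and 836 CPM. Summed adipocyte markers were 4526 to 4551 CPM in Itga5-High and 5009.9 to 5061 CPM in Itga5-Low. Endothelial markers summed to 25.3 to 26.5 and 27.7 to 28.6 CPM, pericyte and smooth muscle markers to 48.7 to 49.4 and 50.8 to 56.1 CPM, macrophage markers without Ptprc to 42.01 to 43.9 and 21.5 to 22.5 CPM, and mesothelial markers without Msln, Krt8 and Krt18, which were not analysed in this table, to 100.3 to 104 and 41.9 to 44.1 CPM. Most of the difference in the macrophage sum was Csf1r, at 29.5 and 9.54 CPM, while Lyz2 had means of 6.05 and 6.02 CPM and Cd14 of 3.42 and 3.74 CPM. Of 4 macrophage markers tested, 2 were called higher and 2 were not called. Nearly all of the mesothelial sum was Krt19, at 99.2 and 40.1 CPM, while Upk3b had means of 0.390 and 0.677 CPM, Wt1 of 1.88 and 2.03 CPM and Lrrn4 of 0.255 and 0.290 CPM. Their part in the differences was not tested.

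Col1a1 was at 26494, 26344 and 26163 CPM in Itga5-High and 21194, 21023 and 21184 CPM in Itga5-Low, 1.25-fold higher. Col1a2 was at 12339.6, 12225 and 12225 and 12449.8, 12457 and 12530.0 CPM, a log2 difference of -0.025 ± 0.0056. The type I chains thus changed unequally, with Col1a1 higher and Col1a2 slightly lower in Itga5-High. Col3a1 was at 11349, 11414 and 11380.2 and 14081, 14081 and 14128 CPM, 1.24-fold lower in Itga5-High. Col5a3 was at 653, 643 and 648 and 419, 412 and 420.5 CPM, 1.55-fold higher, the largest rise among the members. Col5a1 and Col5a2 differed by 0.13 ± 0.0079 and 0.097 ± 0.0081 log2. Col11a1 was at 31.5, 34.8 and 31.01 and 68.9, 69.6 and 68.3 CPM, 2.13-fold lower in Itga5-High, with no overlap between groups for any chain of this paragraph.

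Col6a1 was at 3394, 3397 and 3383 CPM in Itga5-High and 3048, 3007 and 3026 CPM in Itga5-Low, Col6a2 at 3082, 3045 and 3037 and 2683, 2668 and 2666 CPM, and Col6a3 at 2574, 2567 and 2583 and 2409, 2371 and 2381 CPM. All 3 were higher in Itga5-High, by 0.16 ± 0.0078, 0.19 ± 0.0081 and 0.11 ± 0.0084 log2. Col6a5 had 13 counts over the Itga5-High and 61 over the Itga5-Low libraries, 3.71-fold lower (edgeR adjusted p = 0.000844, with every Itga5-High library lower). Col4a1 was at 3572, 3614 and 3569.8 and 2799.9, 2823 and 2857 CPM, 1.27-fold higher, and Col4a2 at 2223, 2192 and 2181 and 2004, 1998 and 2019 CPM, 1.10-fold higher. Both type IV chains were outside the range of the other group. Col4a5 at 80.9, 78.5 and 76.00 and 71.7, 74.8 and 80.5 CPM overlapped and was not called (edgeR adjusted p = 0.241, or 0.0398 without Itga5-Low replicate 3).

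Col12a1 at 1995, 2009 and 1994 against 1679, 1665 and 1686 CPM, Col16a1 at 334, 335 and 330.1 against 246, 254 and 248 CPM, Col15a1 at 994, 1005 and 1005 against 879.5, 899 and 910.0 CPM and Col18a1 at 179, 174 and 181 against 153, 157 and 155 CPM were also higher in Itga5-High, by 0.25 ± 0.0091, 0.42 ± 0.019, 0.16 ± 0.012 and 0.20 ± 0.024 log2. Lower members included Col14a1 at 82.5, 86.7 and 81.9 against 112, 118 and 111 CPM and Col8a1 at 66.4, 63.6 and 58.6 against 75.98, 86.95 and 79.1 CPM. Larger differences were those of Col8a2, 7.83, 8.67 and 9.43 against 22.3, 23.4 and 22.6 CPM or 2.66-fold, and Col28a1, 47.1, 49.4 and 52.9 against 132, 128 and 130.1 CPM or 2.62-fold. The Itga5-Low libraries had more of each without overlap. Col23a1 and Col27a1 were 2.05-fold and 1.58-fold lower in Itga5-High.

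Chains that share a trimer or a fibril can be compared within a library, where scaling plays no part. A total of 8 log2 ratios of counts were computed, and each differed between the 4 undifferentiated groups in an exact permutation test of the F statistic (n = 3 a group, adjusted p = 8.66e-05 to 0.000779 by Benjamini-Hochberg over the 8 ratios, where the smallest raw p the test allows is 6.49e-05). The pairs were chosen with earlier results of these data known, and replicates this close bring p near that limit. That all 8 differed is therefore a description of these pairs only. For the differentiated pair, 3 libraries against 3 cannot go below p = 0.1 in a two-sided exact permutation test, and each ratio reached that value.

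Type I collagen is mostly a trimer of alpha 1 and alpha 2 chains in the proportion of a pair to a single chain. Per length, the ratio of Col1a1 to Col1a2 RNA was 1.19 ± 0.0036 (SD, n = 3) in mock, 1.59 ± 0.0040 with TGF-b1, 0.650 ± 0.0046 with SB431542 and 1.46 ± 0.0023 in HFD mock, and 1.89 ± 0.0065 and 1.49 ± 0.0068 in Itga5-High and Itga5-Low. The SB431542 libraries alone held more Col1a2 than Col1a1 RNA per length. The log2 ratio of counts of Col3a1 to Col1a1 was -0.77, -0.78 and -0.75 in the mock libraries, -2.65, -2.66 and -2.66 with TGF-b1, 0.95, 0.96 and 0.96 with SB431542 and -1.58, -1.59 and -1.58 in HFD mock. It was above 0 only with SB431542. In Itga5-High libraries it was -1.22, -1.21 and -1.20, and in Itga5-Low -0.59, -0.58 and -0.58.

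For type VI, the log2 ratio of counts of Col6a3 to Col6a1 was 0.13, 0.15 and 0.15 in mock and 2.82, 2.85 and 2.77 with TGF-b1. It was 0.40, 0.39 and 0.39 with SB431542 and 1.51, 1.51 and 1.49 in HFD mock, and -0.40, -0.40 and -0.39 and -0.34, -0.34 and -0.35 in Itga5-High and Itga5-Low. The TGF-b1 libraries were thus the highest and the differentiated libraries the lowest. Per length, Col6a3 RNA exceeded Col6a1 RNA with TGF-b1 at 2.99 ± 0.071 and in HFD mock at 1.20 ± 0.010, but not in mock at 0.475 ± 0.0042. The ratio of Col6a1 to Col6a2 stayed closer, between 1.06 ± 0.0075 per length in Itga5-High and 1.61 ± 0.014 with SB431542.

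The type IV pair varied least of the 8 ratios, with per-length ratios of Col4a1 to Col4a2 of 1.46 ± 0.020 in mock, 1.55 ± 0.0067 with TGF-b1, 1.42 ± 0.018 with SB431542, 1.41 ± 0.019 in HFD mock, 1.59 ± 0.021 in Itga5-High and 1.37 ± 0.0098 in Itga5-Low. Type VIII varied widely. The per-length ratio of Col8a1 to Col8a2 was 4.08 ± 0.27 in mock, 20.1 ± 2.3 with TGF-b1, 3.30 ± 0.15 with SB431542 and 37.00 ± 2.6 in HFD mock. Col5a1 to Col5a2 stood at 0.336 ± 0.0046, 0.309 ± 0.0045, 0.486 ± 0.0083 and 0.560 ± 0.0029 per length in the same order, and at 0.945 ± 0.0018 and 0.925 ± 0.0053 in Itga5-High and Itga5-Low. Col5a3 to Col5a1 stood at 0.0957 ± 0.0037, 0.0377 ± 0.00053, 0.402 ± 0.0092 and 0.0395 ± 0.0012 per length in the undifferentiated groups, highest with SB431542, and at 0.282 ± 0.0015 and 0.199 ± 0.0028 in the differentiated groups.

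**Figure D4:**
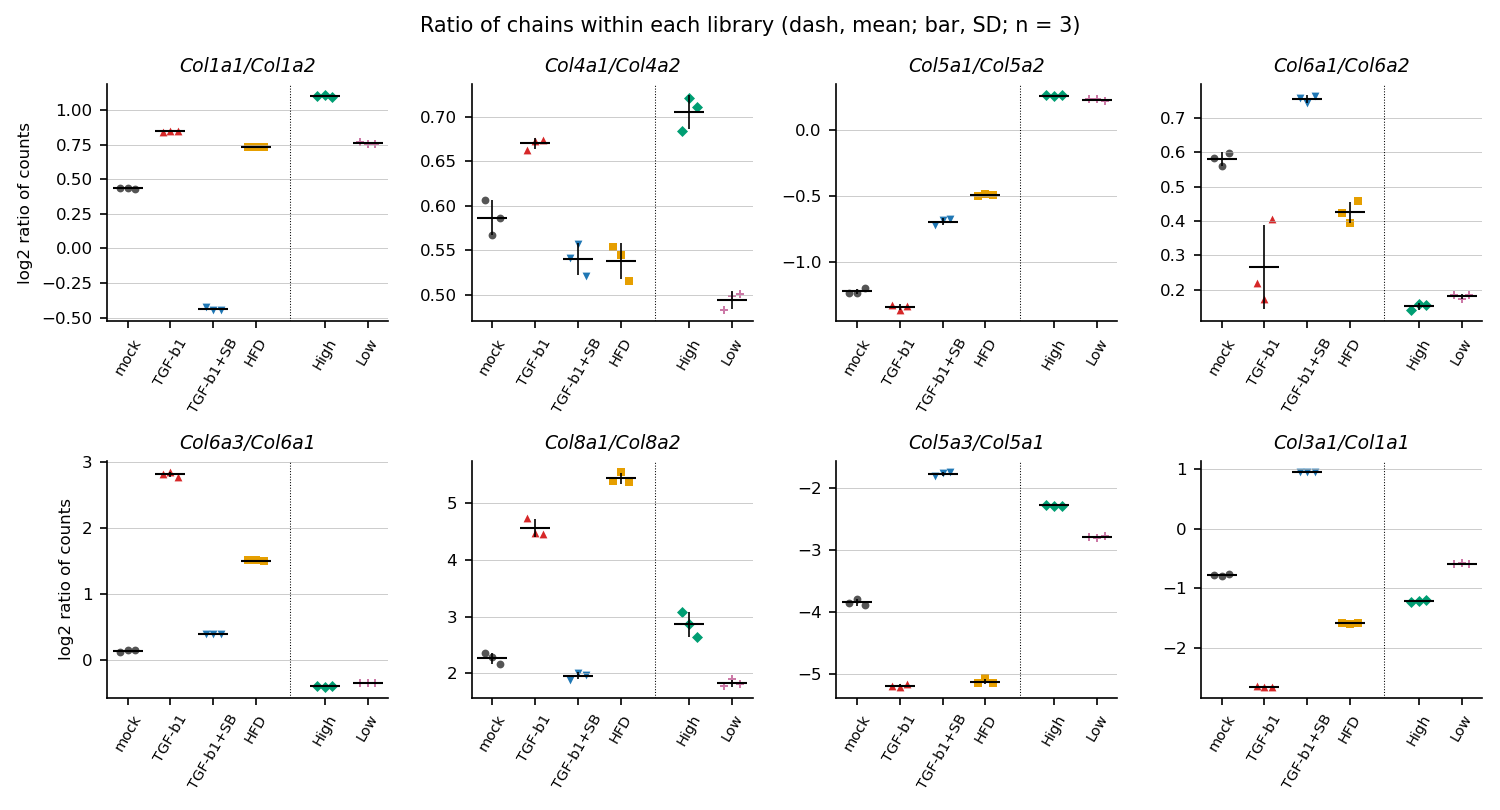
Log2 ratio of the counts of 2 chains within each library (vertical axis, its range differs by panel) for 8 chain pairs, by group; dashes are means and bars SD of 3 libraries, and the dotted line parts the separately made table of differentiated cells. Col3a1/Col1a1 rises above 0 with SB431542 only, and Col6a3/Col6a1 peaks with TGF-b1 near 2.81.

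Some members had several RefSeq transcripts in the tables, and their shares of the gene's counts are given without a test because the way reads were divided between them is not stated. The longer Col6a3 transcript (10841 against 9020 bases) had 13.05, 15.99 and 14.2% of Col6a3 counts in mock, 20.7, 24.1 and 22.3% with TGF-b1, 6.84, 7.43 and 6.14% with SB431542 and 24.7, 23.5 and 25.6% in HFD mock. The groups did not overlap except for TGF-b1 and HFD mock. In Itga5-High it had 10.1, 10.9 and 9.90% and in Itga5-Low 7.66, 7.42 and 7.93%. For Col18a1, the transcript of 5628 bases, from the inner start printed above, had 35.1, 28.1 and 29.9% in mock, 13.03, 26.8 and 22.4% with TGF-b1, 21.7, 17.1 and 25.6% with SB431542 and 41.5, 56.7 and 38.1% in HFD mock. HFD libraries were above the other undifferentiated ones, with a wide spread between replicates. Itga5-High libraries had 38.5, 30.7 and 35.1% and Itga5-Low libraries 51.3, 46.6 and 47.5%.

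**Figure D5:**
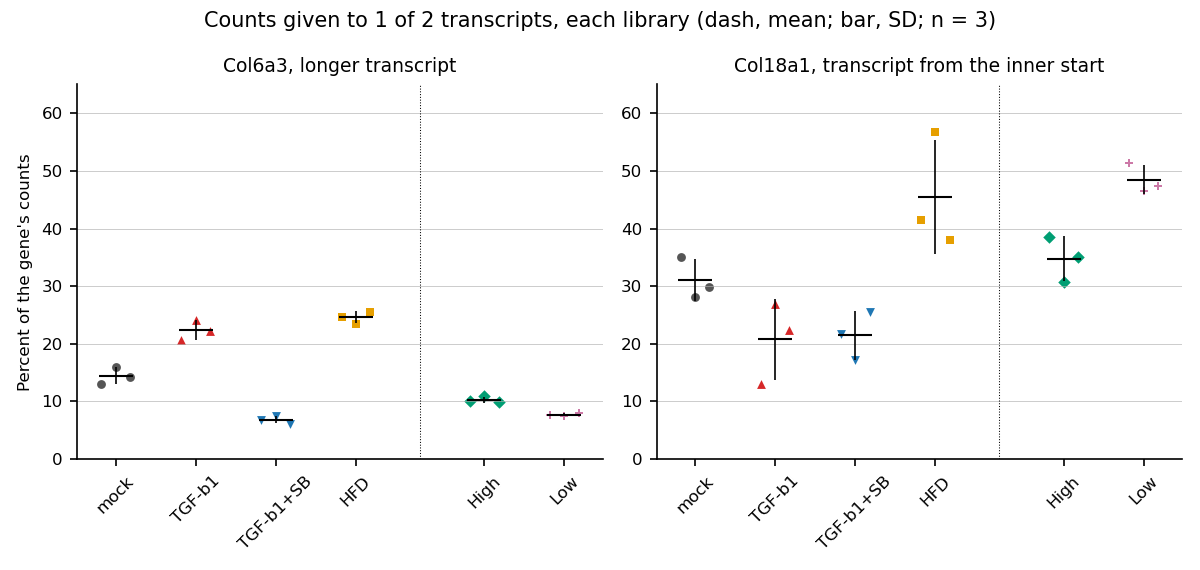
Percent of a gene's counts given to the longer Col6a3 transcript (left) and to the Col18a1 transcript from the inner start (right) in each library; dashes are means and bars SD of 3 libraries, with differentiated cells right of the dotted line. The Col6a3 share is 20.7% to 25.6% with TGF-b1 and in HFD mock and 6.14% to 7.43% with SB431542, and the Col18a1 share spreads from 38.1% to 56.7% in HFD mock.

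The genes that modify, cross-link, bind or break down collagen were followed as a list of 44. With TGF-b1, 25 rose, 15 fell and 4 were not called, beside 33.4% higher and 34.2% lower of all genes tested, and the median log2 difference was 0.096 against -0.017 for all genes. Lox, which cross-links collagen fibrils, rose from 3363 ± 20 to 8149 ± 31 CPM (SD, n = 3) and its relative Loxl2 from 701 ± 9.4 to 1563 ± 18 CPM. Adamts2, the protease that trims the amino end of procollagen, fell from 604 ± 5.0 to 193 ± 6.1 CPM, and Ddr2, a receptor for fibrillar collagen, fell from 417 ± 7.1 to 289.7 ± 8.2 CPM. With SB431542 against TGF-b1, 15 rose and 27 fell (median -0.52), beside 41.4% and 38.3% of all genes. Lox and Serpinh1, the collagen chaperone Hsp47, fell, with log2 differences of -4.74 ± 0.010 and -0.93 ± 0.0084, while Adamts2 and Ddr2 rose by 1.93 ± 0.017 and 0.89 ± 0.018 log2. Against mock, 14 were higher and 26 lower with SB431542 (median -0.26), beside 30.6% and 30.4% of all genes.

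In HFD mock, 25 of the 44 were higher and 14 lower than in CD mock (median 0.11), beside 27.1% and 26.6% of all genes. The higher ones included the collagen-binding integrin gene Itga11 at 1.08 ± 0.025 log2 and Lox at 0.63 ± 0.0078. P4hb, a subunit of prolyl 4-hydroxylase, and P3h4, which acts with a lysyl hydroxylase, were lower, with log2 differences of -0.17 ± 0.010 and -0.54 ± 0.031. Between Itga5-High and Itga5-Low, 27 of 42 tested were higher and 6 lower (median 0.24), beside 27% and 26.5% of all genes. Among them were Loxl2 at 0.75 ± 0.011 and Serpinh1 at 0.40 ± 0.0075 log2, and Mmp2, a gelatinase, and Itga1, a collagen-binding integrin chain, at -0.39 ± 0.010 and -0.91 ± 0.059. Beside the pathway list, the medians over all genes tested were 0.037, 0.0063, -0.0077 and -0.0033 in the last 4 comparisons.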

How the data were processed

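Poly(A) RNA of 18 libraries had been sequenced. The submitters' processing notes name fastp, STAR, featureCounts and build mm10, without versions. Neither strandedness nor the division of reads between transcripts is stated. The authors deposited estimated counts (expected counts) per RefSeq transcript in 2 tables, which were not scaled. Sums over the transcripts of a symbol were rounded with Python 3.11.15 and pandas 2.3.3. In R 4.3.3, edgeR 4.0.16 was used with the 12 undifferentiated libraries in 1 fit and the 6 differentiated ones in another (filterByExpr, TMM, glmQLFit, glmQLFTest at their defaults), which tested 14078 and 13468 genes. The steps were tested on simulated data. Estimated dispersion was below 1e-04 for 3780 and 1746 genes, where edgeR's deviance is inexact at high counts, so SE come from a fit with dispersion kept at 1e-04 or above. Each SE is the log2 difference divided by the square root of the F statistic of that fit. For large changes such an SE can be smaller than the counting error, as for Col11a1 and Col6a1. The depth of 11154449 to 17288608 counts limits members of few counts through sampling noise, and counting intervals cover that error only. The end positions of the tables lie 1 base past the last base and were lowered by 1. The reported fits did not pair libraries by replicate number.

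The collagen classes, the lists of pathway and marker genes and the chain pairs were chosen with earlier results of these data known. Values in each library are given for members at 100 CPM or more in a group, or called with 1 log2 unit of change and 5 CPM, which held for 24 of 40, and for Col23a1 so that its class is described; the other members are given by counts, means and differences. Pathway genes named are the 2 called ones of smallest adjusted p in each direction of a comparison. Alternatives were total-count scaling, DESeq2 1.42.0, no filter, a dispersion floor, a replicate block, leaving out each replicate, other denominators of the share and the most abundant transcript alone for ratios. Figures were drawn with matplotlib 3.10.9.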

Additional observations from a re-analysis of the deposited data

How the results depend on the processing

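The counts of collagen members called kept within 1.5 times of those reported under total-count scaling, DESeq2, no filter, the dispersion floor and each left-out replicate. Leaving out a replicate gave 12 higher and 18 lower for TGF-b1 against mock, 17 and 13 for SB431542 with TGF-b1 against TGF-b1, 8 to 10 and 17 to 19 against mock, 9 to 10 and 15 to 17 for HFD against CD mock, and 13 to 14 and 10 to 12 for Itga5-High against Itga5-Low. Same-numbered libraries did not deviate together (correlations of -0.027 to 0.034). Because the spread of replicates can be technical, this cannot tell whether a number stands for a shared animal or culture. With the replicate block the counts were 12 and 18, 17 and 13, 10 and 18, 9 and 17, and 13 and 12. Total-count scaling moved the median log2 difference of all genes by -0.15, 0.26, 0.11, -0.083 and -0.041 in the 5 comparisons, and turned Col4a1 in SB431542 against TGF-b1 to 0.12 and Col6a2 in SB431542 against mock to 0.054; the cause was not tested beyond that shift. The log2 ratio of the collagen share of counts between groups was 0.11, -0.86, -0.76, 0.20 and 0.062 in the order of comparisons above. Without Col1a1, Col1a2 and Col3a1 it was 0.058, -0.34, -0.28, 0.23 and 0.14, and with the total scaled by TMM 0.26, -1.12, -0.86, 0.28 and 0.10, in each case with the same sign. The chain ratios kept their direction and their calls with the most abundant transcript alone and without each replicate. Depth limited Col6a4, Col6a5 and Col6a6, whose folds rest on 0 to 2 counts with TGF-b1. It also limited the folds of Col11a1 with SB431542 (21 counts) and of Col24a1 with TGF-b1 (8 counts).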

Other observations

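The 7 members that did not pass the filter on low counts in undifferentiated cells were, beside Col6a4, Col2a1, Col9a2, Col9a3, Col17a1, Col19a1 and Col22a1. Over the 3 libraries of a group, Col2a1, the main fibrillar chain of cartilage, had 0 to 5 counts, Col9a2, its fibril-associated partner, had 1 to 3, Col9a3 had 9 to 22 and Col17a1, the hemidesmosome collagen of epithelium, had 2 to 14. Col19a1 and Col22a1, FACIT chains of muscle and of tissue junctions, had 0 to 8 and 3 to 8 counts. In the differentiated table, Col2a1 had 7 counts in Itga5-High and 19 in Itga5-Low, Col9a2 had 8 and 33, and Col9a3 had 18 and 30, of which only Col9a3 was tested and it was not called (edgeR adjusted p = 0.445). Col9a3 overlaps Tcfl5 on the opposite strand by 237 bases.

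Col4a1 had a second RefSeq transcript, annotated as noncoding and 6632 bases long, that held 32.4, 31.1 and 31.5% of its counts in mock, 31.1, 31.99 and 31.9% with TGF-b1, 30.6, 30.6 and 31.9% with SB431542 and 32.7, 33.7 and 32.5% in HFD mock. In Itga5-High it held 31.3, 31.7 and 30.6% and in Itga5-Low 30.02, 31.2 and 31.3%. The replicates of all groups spanned 30.0% to 33.7%, a narrower range than that of the Col6a3 and Col18a1 transcripts.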
